A study of Homo sapiens with 6 samples.

Results

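The epithelial-mesenchymal transition (EMT) factors SNAI1, SNAI2, ZEB1, ZEB2, TWIST1 and TWIST2, the mesenchymal markers VIM and FN1 and the epithelial marker EPCAM were described in Caki-1 cells with and without VHL. They are the 9 entries, out of 60708 listed genes, that carry one of these symbols. Caki-1 is a human clear cell renal carcinoma line that expresses wild-type VHL. RNA-seq covered 3 samples of vector control cells (VC, genotype WT, infected with the lentiCRISPR vector alone) and 3 samples of VHL-KO cells (infected with lentiCRISPR carrying a guide RNA against VHL). Both groups received a lentiCRISPR virus, and the methods describe puromycin selection of infected cells. According to the methods, the VHL-KO cells are clonal, picked by their lack of VHL protein on immunoblots, so that a trait of the clone and an effect of VHL loss cannot be told apart. How many clones were sequenced is not stated. The samples held between 22628246 and 34881739 counts on genes, with 28463579 or more in each VC sample and 29139722 or fewer in each VHL-KO sample. The labels do not say that the samples of a group came from separate cultures, so p-values measure the spread between these samples, which may be technical.

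EMT is a programme in which epithelial cells loosen their junctions and take on the shape, filaments and matrix of mesenchymal cells. The Snail (SNAI1, SNAI2) and ZEB (ZEB1, ZEB2) zinc finger proteins and the TWIST basic helix-loop-helix proteins bind E-box motifs and repress genes of cell junctions, while vimentin filaments and secreted fibronectin mark the mesenchymal state and EPCAM the epithelial one. In clear cell renal carcinoma, loss of VHL stabilises HIFα proteins, and SNAI1 and TWIST1 are known as genes that hypoxia can induce in several cell types.

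VHL, the edited gene, was measured first. Its transcript had 42.6, 37.8 and 40.1 CPM (counts scaled to library size with TMM factors) in the VC samples and 34.8, 30.4 and 30.5 in the VHL-KO samples. All VHL-KO samples were below all VC samples, by a small margin, and the transcript was still abundant in the knockout cells, where a guide RNA edits the gene but need not remove its RNA. The log2 fold change was -0.33, with an SE of 0.11 and a Benjamini-Hochberg adjusted p of 0.0109 in edgeR's quasi-likelihood test. This call was lost without VC replicate 1 (-0.28) or without VHL-KO replicate 2 (-0.30), with upper quartile factors (-0.22) and with offsets for GC content and length (-0.18). Exons of a gene on the opposite strand cover 23.5% of the VHL exon bases, and the strand setting of the counting is not stated, so reads of the 2 genes cannot be told apart.

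Among the 9 genes, 8 had at least 10 reads in some sample and were tested. FN1 rose, SNAI1, SNAI2, TWIST1 and EPCAM fell, and ZEB1, ZEB2 and VIM did not pass the threshold (an adjusted p of 0.05). TWIST2 had no read in any sample. The 5 called genes are 62.5% of those tested, against 59.7% of all 17401 tested genes. By direction, 1 of 8 was called higher, against 28.5% of all tested genes, and 4 of 8 lower, against 31.2%. At a change of at least 2-fold, 4 of 8 were called, against 26.2%. In 5 of 8, the VC and VHL-KO samples did not overlap, against 64.7%. With 8 genes, 1 gene more or less moves such a share by over 10 percentage points, and no test was made of the shares. Over all tested genes, 4958 were called higher and 5436 lower, and with library size alone the split was 3764 and 6737, the median log2 fold change moving from -0.01 to -0.20. In bulk RNA, fewer cells with a transcript and less of it in each cell cannot be told apart.

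**Figure D1:**
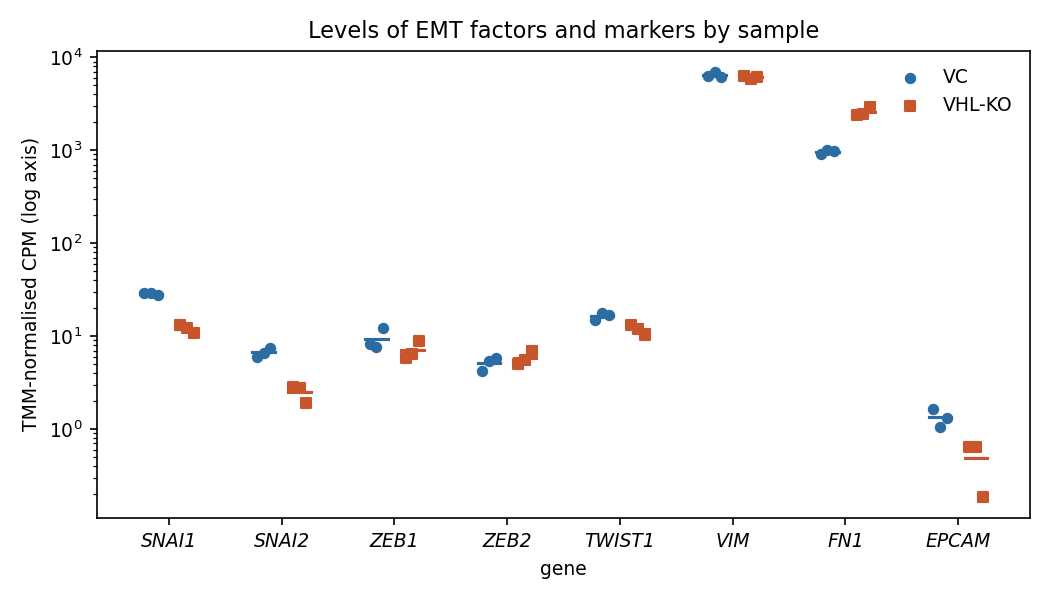
TMM-normalised CPM (log axis) of the 8 tested genes in each sample, with VC samples as circles, VHL-KO samples as squares and the mean of 3 samples as a line. The SNAI1, SNAI2, TWIST1 and EPCAM squares lie below the circles, the FN1 squares lie above them, and those of ZEB1, ZEB2 and VIM overlap.

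SNAI1, the zinc finger repressor Snail, lies on chromosome 20 of GRCh38 from 49982980 to 49988886 on the + strand (ENSG00000124216.4). It had 28.9, 28.8 and 28.0 CPM in the VC samples and 13.2, 12.2 and 10.7 CPM in the VHL-KO samples. The VC samples lay within 1 CPM of each other and every VHL-KO sample was more than 2-fold below the lowest of them, so the groups were far apart. The level fell 2.37-fold, with a log2 fold change of -1.24, an SE of 0.13 and a Benjamini-Hochberg adjusted p of 7.2e-09 in edgeR's quasi-likelihood test. With GC and length offsets the log2 fold change of SNAI1 was -1.72. Its transcript has a GC content of 58.4%.

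SNAI2, which encodes the related repressor Slug, lies on chromosome 8 from 48917598 to 48921740 on the - strand (ENSG00000019549.13). Reads on it numbered 206, 194 and 286 in VC against 75, 60 and 41 in VHL-KO samples. This was 6.03, 6.53 and 7.53 CPM in VC cells and 2.81, 2.78 and 1.92 CPM in VHL-KO cells. No VHL-KO sample reached the lowest VC sample, and VHL-KO replicate 3 was the lowest of all. SNAI2 fell 2.66-fold, a log2 fold change of -1.41 (SE 0.20) with a Benjamini-Hochberg adjusted p of 1.8e-06 in edgeR's quasi-likelihood test. Per kilobase of exon, SNAI1 stood 7.15 to 9.21 times above SNAI2 in the VC samples and 8.47 to 10.7 times above it in the VHL-KO samples. These ranges overlap, with VHL-KO replicate 3 above all VC samples. With GC and length offsets the log2 fold change of SNAI2 was -1.10, a smaller fall than that of SNAI1, where TMM factors gave SNAI2 the larger one.

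ZEB1 and ZEB2 are large zinc finger and homeodomain repressors. ZEB1 lies on chromosome 10 from 31318495 to 31529814 on the + strand (ENSG00000148516.23), and ZEB2 on chromosome 2 from 144364364 to 144521057 on the - strand (ENSG00000169554.22). ZEB1 had 8.26, 7.64 and 12.2 CPM in the VC samples and 5.88, 6.40 and 8.86 CPM in the VHL-KO samples. VC replicate 3 was the highest, and VHL-KO replicate 3 was above 2 VC samples, so the groups overlapped. The log2 fold change of ZEB1 was -0.42 (95% interval -0.82 to -0.02), with a Benjamini-Hochberg adjusted p of 0.0626 in edgeR's quasi-likelihood test. ZEB1 was called lower without VC replicate 1 (log2 fold change -0.50), without VC replicate 2 (-0.53), without VHL-KO replicate 3 (-0.61), with library size alone (-0.62) and with at least 1 count in any sample as the filter (-0.46), whereas without VC replicate 3 the log2 fold change was -0.16 and with GC and length offsets 0.05. The adjusted p of ZEB1 ranged from 0.013 to 0.804 over the alternatives (Benjamini-Hochberg, edgeR's quasi-likelihood test or DESeq2).

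ZEB2 had 4.25, 5.45 and 5.82 CPM in the VC samples and 4.98, 5.56 and 6.85 CPM in the VHL-KO samples. The samples of the groups were interleaved, and the log2 fold change was 0.16, with a 95% interval (-0.23 to 0.55) that covers both signs. This estimate had the opposite sign to that of ZEB1 under TMM factors. With library size alone the log2 fold change of ZEB2 was -0.03, and with GC and length offsets it was 0.62 and ZEB2 was called higher (Benjamini-Hochberg adjusted p = 0.00401 by edgeR's quasi-likelihood test, with 0.00401 to 0.920 over the alternatives). Both ZEB transcripts have a low GC content, 38.4% for ZEB1 and 39.1% for ZEB2. Exons of other genes on the opposite strand cover 4.58% of the exonic bases of ZEB1 and 4.97% of those of ZEB2.

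TWIST1, a basic helix-loop-helix factor of mesoderm and neural crest, lies on chromosome 7 from 19020991 to 19117636 on the - strand (ENSG00000122691.13). It had 14.9, 17.9 and 17.0 CPM in the VC samples and 13.3, 11.8 and 10.4 CPM in the VHL-KO samples. The groups did not overlap, although VC replicate 1 and VHL-KO replicate 1 lay close together. The log2 fold change was -0.49, with an SE of 0.14 and a Benjamini-Hochberg adjusted p of 0.00477 in edgeR's quasi-likelihood test, the smallest of the called changes among these genes, and -0.88 with GC and length offsets. Its paralog TWIST2, on chromosome 2 from 238848032 to 238910534 on the + strand (ENSG00000233608.4), had 0 counts in all 6 samples, which leaves room for a level below 3 counts (0.079 to 0.141 CPM, counting error only).

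**Figure D2:**
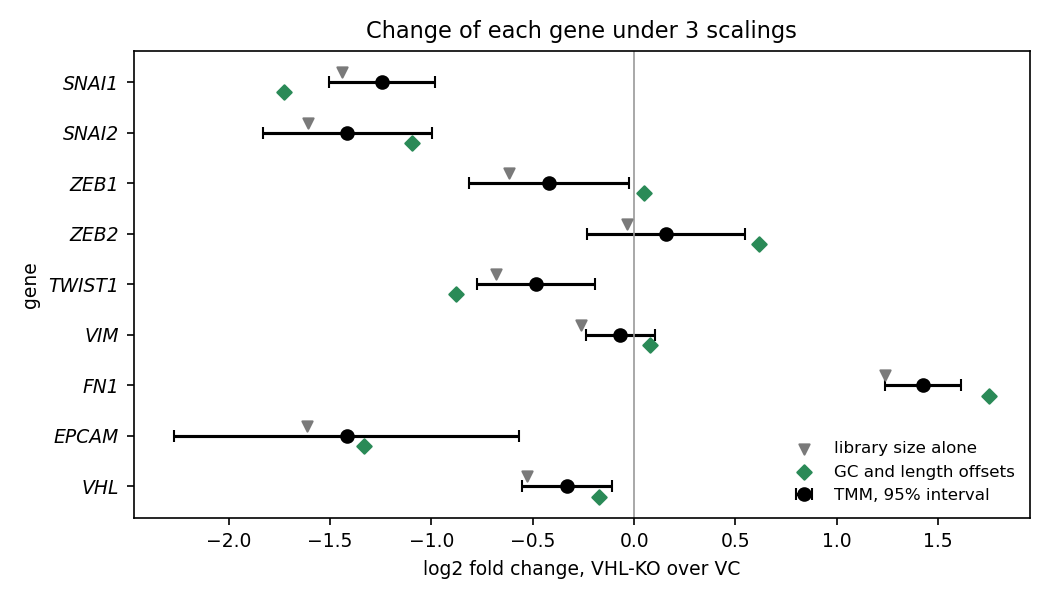
Log2 fold change of VHL-KO over VC for the 8 tested genes and VHL, as the estimate with TMM factors and its 95% interval (circles), with library size alone (triangles) and with GC and length offsets (diamonds). FN1 is above 0 and SNAI1, SNAI2, TWIST1 and EPCAM are below 0 under all 3, while ZEB1, ZEB2 and VIM have markers on both sides of 0.

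The mesenchymal markers did not move together. FN1 encodes fibronectin, a secreted matrix glycoprotein, and lies on chromosome 2 from 215360440 to 215436073 on the - strand (ENSG00000115414.21). It had 904, 999 and 981 CPM in the VC samples and 2373, 2479 and 2904 CPM in the VHL-KO samples. Every VHL-KO sample was more than 2-fold above the highest VC sample. FN1 rose 2.69-fold, a log2 fold change of 1.43 (SE 0.09) with a Benjamini-Hochberg adjusted p of 2.2e-12 in edgeR's quasi-likelihood test, and 1.75 with GC and length offsets. It took 0.0970% to 0.107% of all counts in the VC samples and 0.218% to 0.274% in the VHL-KO samples.

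VIM, the intermediate filament protein vimentin, lies on chromosome 10 from 17228241 to 17237593 on the + strand (ENSG00000026025.16). It had 6218, 6944 and 6137 CPM in the VC samples and 6354, 5866 and 6193 CPM in the VHL-KO samples. VC replicate 2 was the highest sample and the other 5 lay close together, so the groups overlapped. The log2 fold change was -0.07 (95% interval -0.24 to 0.10), with a Benjamini-Hochberg adjusted p of 0.490 in edgeR's quasi-likelihood test. As a share of all counts, VIM took 0.668%, 0.725% and 0.668% in the VC samples and 0.582%, 0.555% and 0.584% in the VHL-KO samples, and with library size alone it was called lower (log2 fold change -0.26, Benjamini-Hochberg adjusted p = 0.00239 by edgeR's quasi-likelihood test, with 0.00239 to 0.923 over the alternatives). Exons of antisense genes cover 24.6% of the exonic bases of VIM. Among them, VIM-AS1 had 46.8, 67.3 and 41.5 CPM in VC and 47.5, 67.0 and 51.7 CPM in VHL-KO samples, and without strand information its reads and those of VIM cannot be told apart where they overlap.

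EPCAM, an adhesion protein of epithelial cells, lies on chromosome 2 from 47345158 to 47387601 on the + strand (ENSG00000119888.11). Only 56, 31 and 50 reads fell on it in VC, against 17, 14 and 4 in VHL-KO samples. The groups did not overlap, but the levels, 1.33 ± 0.299 CPM in VC and 0.491 ± 0.263 CPM in the knockout (mean ± SD, n = 3 each), were near the low end of what was tested. The log2 fold change was -1.42 with a wide 95% interval of -2.27 to -0.57 and a Benjamini-Hochberg adjusted p of 0.00477 in edgeR's quasi-likelihood test. EPCAM thus fell in the same direction as SNAI1 and SNAI2. Its divergent neighbour EPCAM-DT had 36, 24 and 37 reads in VC against 90, 57 and 37 in VHL-KO samples and rose by 1.45 on the log2 scale.

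Per kilobase of merged exons, the order of levels in VC cells was VIM at 1243 ± 85.9, FN1 at 55.8 ± 2.95, SNAI1 at 16.8 ± 0.286, TWIST1 at 8.31 ± 0.777, SNAI2 at 2.04 ± 0.233, ZEB1 at 1.08 ± 0.287, EPCAM at 0.549 ± 0.123 and ZEB2 at 0.198 ± 0.0315 CPM per kilobase (mean ± SD, n = 3 each). In VC cells each of these means was more than the 2 SDs together above the next, ordered by level. In VHL-KO cells SNAI1 at 7.06 ± 0.735 and TWIST1 at 5.92 ± 0.732 CPM per kilobase lay within their summed SDs of each other, as did ZEB1 at 0.815 ± 0.185 and SNAI2 at 0.763 ± 0.153, and ZEB2 at 0.222 ± 0.0366 and EPCAM at 0.202 ± 0.108. With the length of the canonical transcript, chosen after the data were seen, the order in VC cells was the same, TWIST1 moved above SNAI1 in VHL-KO cells, and ZEB2 and EPCAM there no longer lay within their summed SDs (0.626 ± 0.103 and 0.317 ± 0.170). VIM ranked 21 of 17355 genes per kilobase in VC and 27 in VHL-KO cells, FN1 moved from rank 688 to rank 284 and SNAI1 from rank 2370 to rank 4429. The level of VIM stood 20.8 to 23.1 times above that of FN1 in the VC samples and 7.09 to 8.90 times above it in the VHL-KO samples, on this scale.

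**Figure D3:**
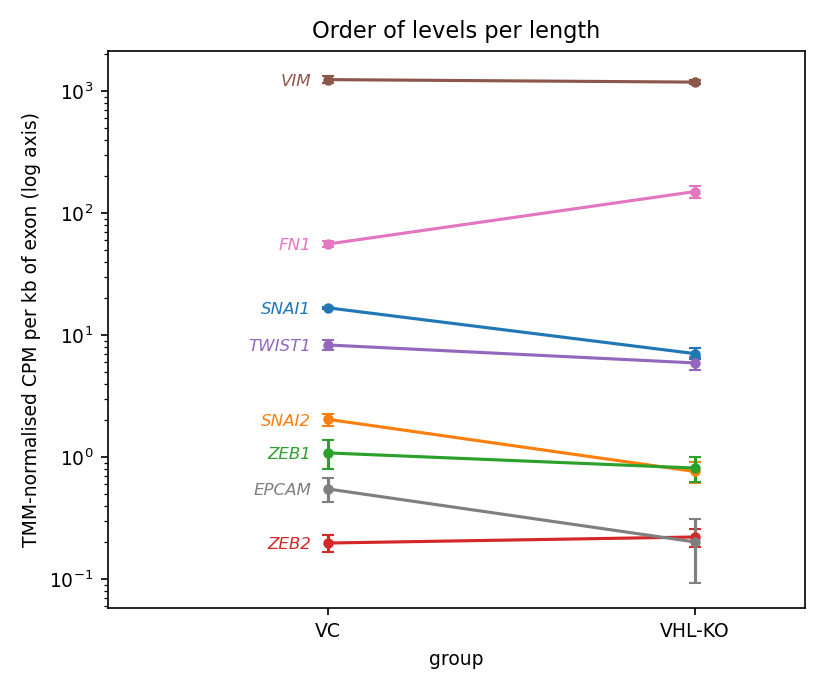
Mean TMM-normalised CPM per kilobase of merged exons (log axis) in VC and VHL-KO cells, with SD bars over 3 samples. VIM stays highest in both groups, the FN1 line climbs, and the lines of SNAI1 and TWIST1, of SNAI2 and ZEB1 and of EPCAM and ZEB2 meet in VHL-KO cells.

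Promoters are shown for ZEB1 (first of its 7 windows) and FN1, where all printed bases lie outside the exons of the gene and hold a motif. RefSeq windows of 250 bases before the gene start were found for 5 of the 9 genes (ZEB1, ZEB2, TWIST2, VIM and FN1, GRCh38.p14), with no entry for SNAI1, SNAI2, TWIST1 and EPCAM. The motifs searched on both strands were the E-box with the letters CAGGTG, the hypoxia response element core with the letters ACGTG or with the letters GCGTG, and, chosen after the windows were seen, the cAMP response element TGACGTCA, which is its own reverse complement. Capitals mark the matches, with an E-box starting 57 bases before the first ZEB1 start and a cAMP response element 183 bases before the RefSeq start of FN1. The FN1 window is printed without its last 5 bases, which lie in a GENCODE exon of FN1.
ZEB1 (chr10:31318167-31318416, + strand): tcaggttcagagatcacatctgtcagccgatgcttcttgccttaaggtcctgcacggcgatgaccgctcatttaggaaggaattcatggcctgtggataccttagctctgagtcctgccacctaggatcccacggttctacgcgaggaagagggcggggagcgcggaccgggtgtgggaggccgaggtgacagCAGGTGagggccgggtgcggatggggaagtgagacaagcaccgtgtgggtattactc
FN1 (chr2:215436074-215436318, - strand, 5′ to 3′): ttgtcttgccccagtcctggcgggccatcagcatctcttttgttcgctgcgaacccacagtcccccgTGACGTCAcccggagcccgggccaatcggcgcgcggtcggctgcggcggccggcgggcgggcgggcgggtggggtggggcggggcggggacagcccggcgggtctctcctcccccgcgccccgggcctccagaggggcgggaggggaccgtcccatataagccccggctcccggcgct
Of all 35116 windows in the table, 17.5% hold an E-box, 43.2% a hypoxia response element core and 1.65% the cAMP response element. The windows of VIM, TWIST2 and FN1 held no E-box and no hypoxia response element core, and that of ZEB2 held no E-box and 4 cores. Of the other ZEB1 windows, which start at later transcript starts, window 2 held 3 cores, window 3 held 2 E-boxes, window 5 held 1 core and window 6 held 2 cores, all 4 windows lying at least partly in ZEB1 exons. A match is a string of letters and not a binding site.

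The genes whose log2 CPM followed FN1 most closely over the 6 samples, out of 8446 genes with a mean of at least 10 CPM, were SDC4 (Pearson r = 0.998), HERPUD1 (0.998) and BCL6 (0.998). All 6 samples fall into the VC and VHL-KO groups, so these values mostly reflect the difference between the groups. SDC4 had 190, 191 and 196 CPM in the VC samples and 263, 265 and 281 CPM in the VHL-KO samples.

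The gene lists below were chosen with earlier results of these data known. Their counts beside the shares of all genes are a description only. Of 14 other EMT transcription factors, 10 were tested, 2 rose (28.5% of all tested genes rose) and 6 fell (31.2% fell). The median log2 fold change of these factors was -0.35 (-0.55 to -0.08 over the alternatives) against -0.01 for all tested genes. FOXC2, a forkhead factor, had 9.11, 8.41 and 7.96 CPM in the VC samples and 1.27, 1.25 and 1.83 CPM in the VHL-KO samples. All VHL-KO samples lay far below all VC samples. FOXC2 fell by 2.55 and TCF12, an E protein, by 1.72 on the log2 scale, whereas the forkhead factor FOXC1 rose by 1.29. TCF3, the E protein with the highest level of the list in VC cells but not in VHL-KO cells, fell by 0.46. With GC and length offsets 4 factors were called higher. GSC and TBXT had no read in any sample.

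Of 17 genes listed as corepressor partners of EMT factors, all tested, 13 fell and 2 rose, against 31.2% lower and 28.5% higher among all tested genes. Their median log2 fold change was -0.70 (-0.90 to -0.48 over the alternatives). EZH2, the methyltransferase of the Polycomb complex, had 55.1, 48.7 and 58.4 CPM in VC and 22.0, 25.6 and 21.7 CPM in VHL-KO samples. The log2 fold change was -1.23 for EZH2, -1.23 for its partner EED, -1.14 for SUZ12 and -1.45 for the histone methyltransferase SUV39H1, and all 4 fell. With GC and length offsets the values were -0.84, -0.81, -0.64 and -1.71 in the same order, and all 4 were still called lower. CTBP1, the most abundant corepressor by CPM, rose by 0.32, a call lost with library size alone and with GC and length offsets (0.13 and 0.03). Of 13 genes of Snail protein turnover, all tested, 9 fell and 1, the phosphatase CTDSP1, rose (0.91). Among all tested genes, 31.2% fell and 28.5% rose. The median of these 13 genes was -0.73, and -0.28 with GC and length offsets. RNA counts do not measure the turnover of Snail protein, which was not tested. The kinases LATS2 and PRKD1 fell by 1.15 and 1.05, and the ubiquitin ligase subunit FBXO45 by 0.97.

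Of 34 mesenchymal genes, 26 were tested, 9 rose and 11 fell, against 28.5% higher and 31.2% lower among all tested genes. Their median was 0.14 on the log2 scale, 0.26 with upper quartile factors and 0.23 with GC and length offsets. It was -0.05 under library size alone, -0.10 with at least 1 count as the filter and -0.0009 without VHL-KO replicate 3. The lysyl oxidase LOXL2 had 480, 526 and 470 CPM in VC and 1179, 1201 and 1290 CPM in VHL-KO samples, and TGFBI, a matrix protein and the most abundant by mean CPM of all 6 samples though not within either group, rose by 0.61. ACTA2, smooth muscle actin, rose by 1.59, with 36.2% of its exonic bases inside other genes. TNC, the matrix protein tenascin C, had 73.8, 85.9 and 76.0 CPM in VC and 19.0, 17.5 and 22.8 CPM in VHL-KO samples, and PDGFRB fell by 1.94. The fitted change furthest from 0 was that of MMP2, outside the naming rule, with 12, 21 and 16 reads in VC against 2, 0 and 0 in VHL-KO samples. MMP2, 1 of the 11 that fell, passed the filter through VC samples alone, the group where it was higher. No conclusion is drawn from its call.

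**Figure D4:**
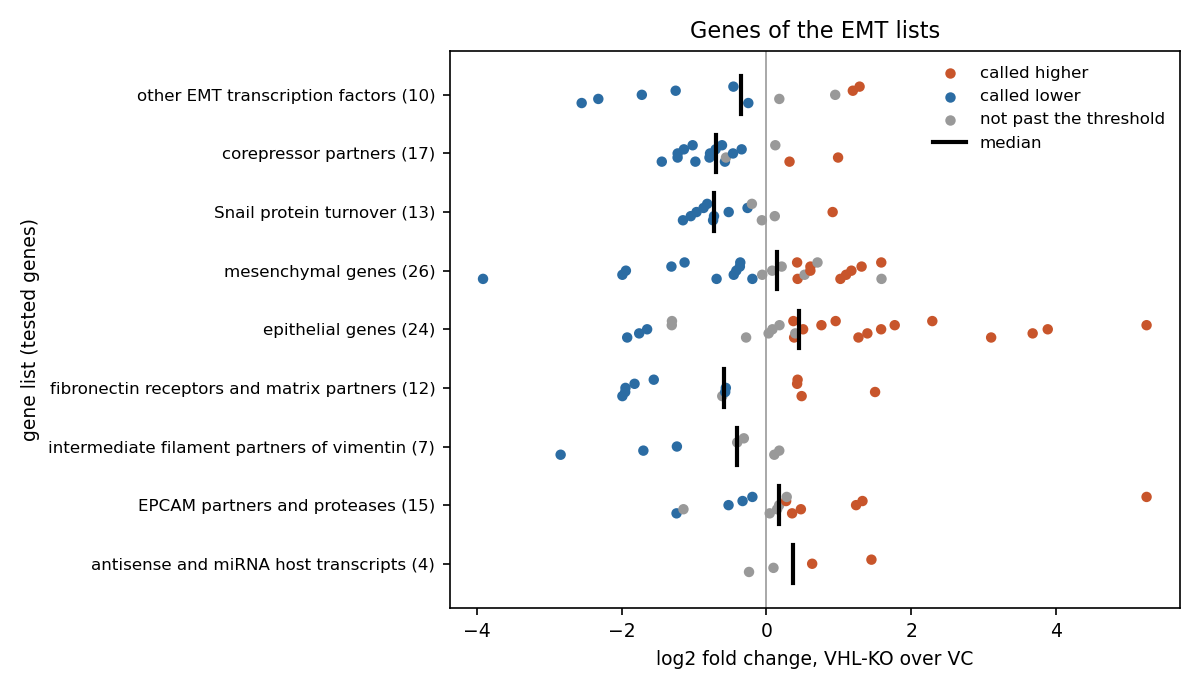
Log2 fold change of VHL-KO over VC for each tested gene of 9 lists, 1 point a gene, with the number of tested genes in brackets, the median as a black bar and colours for the call. Corepressor and Snail turnover genes lie mostly below 0, and the epithelial genes include the largest values above 0. Both points at 5.25 are ST14, which is in the epithelial and the EPCAM partner lists and rests on 12 counts in VHL-KO replicate 1. All other samples, VC and VHL-KO, had 0 counts of ST14, so no conclusion is drawn from its call.

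Among 34 epithelial genes, 24 were tested, 14 rose (11 to 14 over the alternatives) and 3 fell (2 to 4), against 28.5% higher and 31.2% lower among all tested genes, with a median log2 fold change of 0.45 (0.26 to 0.79 over the alternatives). The mucin MUC1 had 20, 23 and 19 reads in VC against 247, 191 and 197 in VHL-KO samples. LLGL2, a polarity protein, had 8.73, 11.0 and 8.06 CPM in VC and 79.3, 77.7 and 81.1 CPM in VHL-KO samples. MUC1 rose by 3.89, the tight junction protein CLDN3 by 3.68, LLGL2 by 3.10 and plakoglobin (JUP) by 2.29 on the log2 scale, and KRT8, the most abundant by CPM, rose by 0.51. The 3 that fell, named after their values were seen, were the junction genes TJP1, PKP2 and CDH3. The rise of the protease ST14, 1 of the 14, rests on 1 sample, with 12 counts in VHL-KO replicate 1 and 0 in the other 5. ST14 passed the filter through that sample alone, so no conclusion is drawn from its call. CDH1, the E-cadherin gene that Snail and ZEB proteins repress, had 0, 3 and 1 reads in VC and none in VHL-KO samples, too few to test. GRHL2, OVOL1 and RAB25 had no read in any sample.

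The fibronectin receptors and matrix partners had 4 rises and 7 falls among 12 tested genes of 13, where 28.5% of all tested genes rose and 31.2% fell. The median of the list was -0.59 on the log2 scale, and -0.95 without VHL-KO replicate 3. Syndecan 2 (SDC2) fell by 1.95, integrin ITGA4 by 1.95 and the latent TGF-β binding protein LTBP1 by 1.82 on the log2 scale, while 26.4% of the exonic bases of ITGA4 overlap an opposite-strand gene. TGM2, the most abundant by CPM, had 1057, 1186 and 1040 CPM in VC and 674, 743 and 807 CPM in VHL-KO samples, a fall of 0.56. Among 10 intermediate filament partners of vimentin, 7 were tested, none rose (2 without VC replicate 2, 1 with upper quartile factors) and 3 fell (6 with GC and length offsets), where 28.5% of all tested genes rose and 31.2% fell. Lamin B1 (LMNB1) had 124, 122 and 139 CPM in VC and 17.5, 18.6 and 17.5 CPM in VHL-KO samples and fell by 2.84, nestin (NES) by 1.70 and LMNB2 by 1.24. Plectin (PLEC), the most abundant by CPM, had a log2 fold change of 0.18, with opposite signs under the scalings (-0.22 with GC and length offsets, -0.01 with library size alone), and was called higher with upper quartile factors (0.29) and without VC replicate 2 (0.32) and lower with the offsets.

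Of 18 EPCAM partners and proteases, 15 were tested, 6 rose (4 to 8 over the alternatives) and 4 fell (2 to 5), where 28.5% of all tested genes rose and 31.2% fell. ST14, on 12 counts in 1 sample, is among the 6, and no conclusion is drawn from its call. Their median was 0.18 on the log2 scale, -0.02 under library size alone and 0.44 under GC and length offsets, and 2 fell without VC replicate 3 or without VHL-KO replicate 1. FHL2 rose by 1.33 and the γ-secretase subunit PSENEN by 1.24, with 52.2% of its exonic bases inside other genes, and β-catenin (CTNNB1) had 172, 178 and 203 CPM in VC and 70.5, 86.1 and 77.5 CPM in VHL-KO samples, a fall of 1.24. The protease BACE2 fell by 0.52. CD44, the most abundant by CPM, had a log2 fold change of -0.19 that was called with TMM factors and in 3 of 14 alternatives. Of 7 antisense and miRNA host transcripts, 4 were tested and 2 rose (28.5% of all tested genes rose), EPCAM-DT and SNAI3-AS1 (0.63). MIR200CHG and MIR205HG, hosts of miRNAs that target ZEB1 and ZEB2, had no read in any sample.

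Markers were used to check the cell type, and their calls stand against 28.5% higher and 31.2% lower among all tested genes. Kidney epithelial markers summed to 1713, 1927 and 1561 CPM in VC and 2390, 2313 and 2326 CPM in VHL-KO samples, where 8 of 10 were tested, 5 rose and 1 fell, with KRT8 most abundant and PAX2 and LRP2 at 0 in all samples. Fibroblast markers summed to 43.4, 47.4 and 37.3 CPM in VC and 30.3, 27.3 and 26.1 CPM in VHL-KO samples, with COL1A1 most abundant, 2 of 3 tested genes lower and COL3A1 and LUM at 0. Endothelial markers summed to at most 0.711 CPM in any sample and 0.237 CPM in any VC sample. PECAM1 was most abundant over all samples (KDR in VC) and the 1 tested gene, called higher, with TEK and CLDN5 at 0. PECAM1 passed the filter through VHL-KO samples alone, the group where it was higher, so no conclusion is drawn from its call. Leukocyte markers summed to 1.42 to 1.88 CPM in VC and 3.66 to 5.56 CPM in VHL-KO samples, with CD14 most abundant, the 1 tested gene, called higher, and CD3E at 0. The part of these markers in the results was not tested.

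Changes also followed GC content across 17355 genes (Spearman's rho 0.314, genes not being independent replicates). The median log2 fold change was -0.47 for genes with under 35% GC and 0.59 for those with 65% or more. SNAI1 and TWIST1 have GC contents of 58.4% and 57.2%, and the median of genes between 55% and 60% GC was 0.30. FN1 has 42.2%, and the median of genes between 40% and 45% was -0.27. ZEB1, at -0.42, and ZEB2, at 0.16, belong to the genes between 35% and 40% GC, whose median was -0.45. These medians say nothing of the spread within a range, and no cause was tested.

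**Figure D5:**
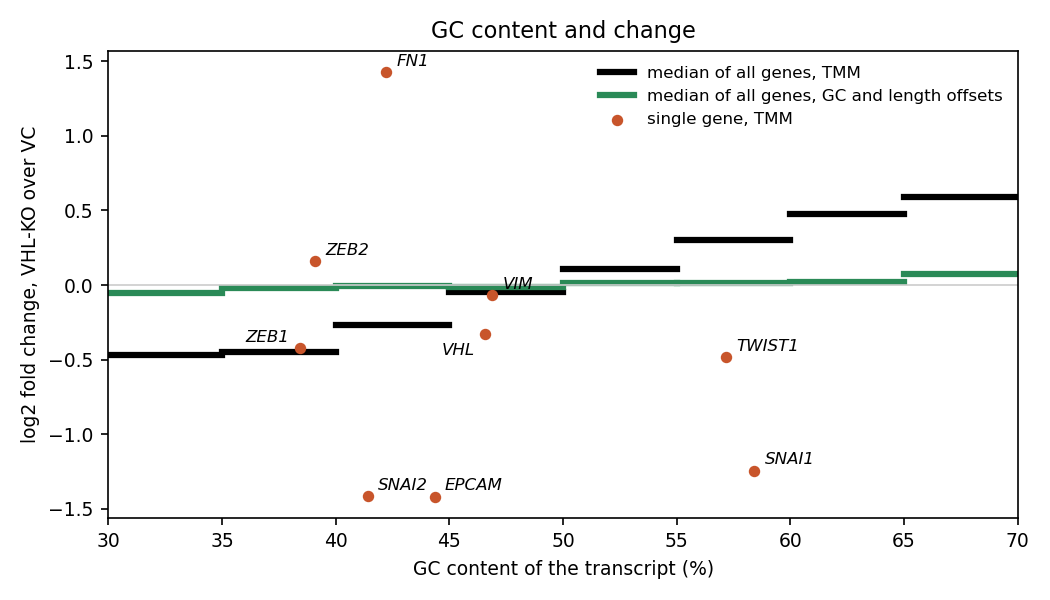
Log2 fold change of VHL-KO over VC against the GC content of the transcript in percent, with the median of all genes in each GC range before (black bars) and after (green bars) GC and length offsets, and the single genes as points. The lowest and highest ranges, under 35% and 65% or more, are drawn to 30% and 70%. FN1 lies far above and SNAI1, SNAI2, EPCAM and TWIST1 far below the black bars, while ZEB1 and VIM lie on them and ZEB2 lies above.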

How the data were processed

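RNA-seq was performed on Caki-1 cells, 3 VC and 3 VHL-KO samples. The values deposited by the authors are raw counts per gene. Per the methods and processing notes, an Illumina NovaSeq read the libraries of total RNA, and sequences were trimmed with Trim Galore and cutadapt, aligned with STAR to GRCh38.p13, kept if mapped to 1 location and counted with HTSeq. Strandedness and annotation release are not given in the sources used here. The members and lists were chosen with earlier results of these data known, so their counts beside the shares of all genes are a description only.

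The fit took genes that reached 10 reads in any sample and was made with edgeR 4.0.16 in R 4.3.3 (TMM factors, quasi-likelihood F test, two-sided, Benjamini-Hochberg adjustment over 17401 genes, threshold 0.05). Standard errors are the absolute log2 fold change over the square root of F. GC content, length and positions came from GENCODE release 44, promoters from RefSeq (GRCh38.p14). The genes of the 13 lists were written from general knowledge, with earlier results of these data known. Named were all members and VHL, up to 4 called genes with the largest absolute change and at least 1 CPM in either group, and the most abundant gene (mean CPM of all samples), in each of 9 lists, the 3 genes most alike to the member with the largest change, and the most abundant and undetected markers of 4 cell types. Other named genes were chosen after their values were seen. The fit was tested on simulated counts. Alternatives were DESeq2 1.42.0, RLE and upper quartile factors, library size alone, filters of at least 1 count in any and 10 reads in every sample, leaving out each replicate, the replicate number as a block, and offsets for GC content and length (splines with 5 degrees of freedom), which also remove biological change that follows them. Figures were drawn with matplotlib 3.10.9.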

Additional observations from a re-analysis of the deposited data

How the results depend on the processing

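Of the called members, SNAI1, SNAI2, TWIST1 and FN1 kept direction and call under all 14 alternatives, and EPCAM under the 13 that could fit it, since the filter of at least 10 reads in every sample leaves it out. With library size alone, 35.8% of called genes were higher, ZEB1 (log2 fold change -0.62) and VIM (-0.26) were called lower, and ZEB2 (-0.033), PLEC (-0.012) and VIM-AS1 (-0.089) changed sign. With upper quartile factors VIM was 0.044 and VHL (-0.22) was not called. With at least 1 count in any sample ZEB1 was called (-0.46). With GC and length offsets 2 members were called higher, FN1 and ZEB2 (0.62), ZEB1 (0.049), VIM (0.081), PLEC (-0.22) and CD44 (0.031) changed sign, and VHL (-0.18) was not called. The cause was not tested. With 1 sample left out, the log2 fold change ranged from -0.61 to -0.16 for ZEB1, from -0.39 to -0.28 for VHL, from -0.086 to 0.0083 for VIM and from -0.060 to 0.35 for VIM-AS1. Without VC replicate 2, VIM-AS1 was called higher (0.35). With the replicate number as a block, ZEB1 was called (-0.41) and 4847 genes were called higher and 5437 lower, in place of 4958 and 5436. Deviations of same-numbered samples had correlations of 0.063, -0.0004 and 0.028, and not every sample correlated best with its own number, so the numbers were not taken to pair samples. Of the values of genes named from the lists, 538 kept direction and side of the threshold and 6 changed sign. With the sign kept, 12 lost the call and 3 gained one. Among those that changed sign with GC and length offsets, CD44 also lost its call and PLEC was called lower. Depth limits EPCAM, with 4 to 56 counts a sample.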
